A study of Mus musculus with 6 samples.

Results

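The clustered replication-dependent histone genes are the rows of the deposited gene table whose name starts with Hist1h, Hist2h, Hist3h or Hist4h. These were 71 of the 34745 genes in the table. They carried 70 gene names, because Hist2h2bb stood on 2 rows with different identifiers. They divided into 6 genes of the linker histone H1, 20 of H2A, 20 of H2B, 12 of H3 and 13 of H4. By position 56 lay in the Hist1 cluster on chromosome 13, 11 in the Hist2 cluster on chromosome 3, 3 in the Hist3 cluster on chromosome 11 and 1, Hist4h4, on chromosome 6.

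Total RNA was sequenced from left ventricle of wild-type male C57BL/6 mice, an inbred strain, given as 8 weeks old. The 3 libraries labelled TAC came from mice 6 weeks after transverse aortic constriction, a ligature around the aortic arch that loads the ventricle with pressure. The 3 labelled Sham had the same operation without the ligature. The labels do not say whether each library is a separate mouse or a pool.

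H2A, H2B, H3 and H4 are the core histones around which DNA is wrapped, and H1 binds the linker DNA between these particles. The clustered genes are known for supplying histones to newly copied DNA, and their messages usually end in a stem-loop and carry no poly(A) tail. The stem-loop binding protein Slbp and the U7 small nuclear ribonucleoprotein form that end. Several of these genes are also known to give polyadenylated messages in cells that have stopped dividing, as adult heart muscle cells mostly have. Libraries made from total RNA can hold both forms.

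The libraries held 17399510 to 28401399 counts over genes, of which the histone genes took 4818 to 7126, or 0.0224% to 0.0304%. Nppa and Acta1, which are known to rise in a pressure-loaded ventricle, went against the labels. Nppa, which encodes atrial natriuretic peptide, stood at 64.3 to 95.2 CPM (counts scaled to library size) under the label TAC and at 595 to 1895 under Sham (adjusted p = 0.0222 in edgeR's quasi-likelihood test). Acta1, skeletal muscle actin, stood at 121 to 642 and 3063 to 5033 CPM (adjusted p = 0.0448). Each direction below is therefore one between labels only, and "under TAC" and "under Sham" name the libraries that carry them. The 5 fibroblast markers summed to 751 to 844 CPM under TAC and 1363 to 1839 under Sham, and the 5 macrophage markers to 131 to 241 and 293 to 307. The 5 cardiomyocyte markers summed to 41220 to 57470 and 29520 to 41072. None of these sums overlapped, the last only narrowly. Its member Actc1 did overlap, with 4255 CPM in TAC 3 and 6302 to 7688 under Sham. The sums of endothelial, erythroid, neutrophil and lymphocyte markers overlapped. TAC 3 stood apart from the other libraries on the second principal component, which held 21.8% of the variance.

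To show what lies in front of these genes, the RefSeq promoter windows of 6 members are printed, 250 bases before to 50 bases after the start, 5′ to 3′ on the gene's strand, in GRCm38.p6. Capitals mark the letters CCAAT (the CCAAT box), TATAAA (the TATA box) and ATTTGCAT (the octamer), or their reverse complements. Hist1h1c at chr13:23738557-23738856 (plus strand), Hist1h3e at chr13:23562336-23562635 (minus) and Hist1h4d at chr13:23581318-23581617 (plus) are the members with the highest level of their classes. Hist2h2ac at chr3:96220831-96221130 (minus) and Hist1h2ac at chr13:23683910-23684209 (minus) are H2A genes whose windows reach into the gene models of Hist2h2be and Hist1h2bc, the H2B genes on which much of the later text turns. Hist1h2bq at chr13:21810150-21810449 (minus) has a twin, Hist1h2br at chr13:21833493-21833792 (plus), with the same 300 letters.
Hist1h1c: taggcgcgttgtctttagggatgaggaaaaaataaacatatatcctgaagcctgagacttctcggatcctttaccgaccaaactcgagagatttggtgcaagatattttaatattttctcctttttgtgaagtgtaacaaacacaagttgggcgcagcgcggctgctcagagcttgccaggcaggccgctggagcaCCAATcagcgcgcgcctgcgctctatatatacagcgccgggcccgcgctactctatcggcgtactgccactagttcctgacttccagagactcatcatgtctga
Hist2h2ac: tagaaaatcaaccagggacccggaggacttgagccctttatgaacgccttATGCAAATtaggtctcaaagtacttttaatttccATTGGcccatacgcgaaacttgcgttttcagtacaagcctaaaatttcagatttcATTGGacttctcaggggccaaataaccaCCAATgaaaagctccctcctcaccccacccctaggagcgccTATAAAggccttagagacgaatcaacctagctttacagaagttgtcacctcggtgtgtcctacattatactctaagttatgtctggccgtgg
Hist1h2ac: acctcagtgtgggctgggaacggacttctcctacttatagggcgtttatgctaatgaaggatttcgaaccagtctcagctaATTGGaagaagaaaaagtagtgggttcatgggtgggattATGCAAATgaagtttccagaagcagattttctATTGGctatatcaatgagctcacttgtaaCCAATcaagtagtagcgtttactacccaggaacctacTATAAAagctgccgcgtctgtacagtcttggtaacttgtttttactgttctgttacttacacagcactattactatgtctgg
Hist1h2bq: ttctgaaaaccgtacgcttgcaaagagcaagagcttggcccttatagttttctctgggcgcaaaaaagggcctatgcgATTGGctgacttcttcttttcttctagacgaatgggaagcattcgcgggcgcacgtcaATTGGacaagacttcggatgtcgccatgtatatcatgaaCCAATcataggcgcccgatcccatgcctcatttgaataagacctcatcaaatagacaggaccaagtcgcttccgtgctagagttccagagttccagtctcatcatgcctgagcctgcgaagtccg
Hist1h3e: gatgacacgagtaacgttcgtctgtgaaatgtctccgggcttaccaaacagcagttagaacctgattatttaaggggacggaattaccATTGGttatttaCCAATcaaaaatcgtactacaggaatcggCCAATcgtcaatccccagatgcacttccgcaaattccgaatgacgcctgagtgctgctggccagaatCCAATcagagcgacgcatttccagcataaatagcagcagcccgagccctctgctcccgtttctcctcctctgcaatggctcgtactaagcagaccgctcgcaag
Hist1h4d: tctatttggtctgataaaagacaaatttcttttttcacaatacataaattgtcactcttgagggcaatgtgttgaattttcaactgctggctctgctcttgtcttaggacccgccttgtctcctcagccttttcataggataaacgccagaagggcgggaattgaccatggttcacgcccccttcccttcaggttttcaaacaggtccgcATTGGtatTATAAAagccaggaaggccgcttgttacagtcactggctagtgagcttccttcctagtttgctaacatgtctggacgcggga

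Windows were found for 62 members, 63 windows in all because Hist1h2be had 2. The CCAAT box stood in 54 of 63 (85.7%), against 37.4% of the 32851 promoter windows in the RefSeq table. By class it was in 6 of 6 windows of H1, 18 of 18 of H2A, 17 of 17 of H2B and 10 of 10 of H3, but in 3 of 12 of H4. The TATA box stood in 35 of 63 (55.6%), against 13.6% of all windows. The octamer, a sequence long known from H2B promoters, stood in 7 of 17 windows of H2B and 7 of 18 of H2A, in none of the windows of H1, H3 or H4, and in 1.74% of all windows. Because head-to-head windows overlap, these 14 windows held 11 distinct positions. Both strands were searched, and a match describes letters only. The windows of the 3 classes without an octamer numbered 6, 10 and 12.

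Among the members with a window, 10 pairs of an H2A and an H2B gene stood head to head, with starts at most 500 bases apart. The distance between starts ran from 162 bases in Hist1h2ak with Hist1h2bn to 279 in Hist1h2ba with Hist1h2aa. The H2B partner had the higher mean FPKM (fragments scaled to gene length and library size) in 6 pairs and the H2A partner in 4, while the H2B partner had more counts in 8 pairs and the H2A partner in 2. The order turned in the pairs of Hist1h2bq and of Hist1h2br, whose gene models of 4136 and 3453 nt lower their FPKM. Hist1h2bf, with 151 counts and 2.60 FPKM, stood above Hist1h2ad with 22 counts and 0.375 FPKM. Hist1h2ak, with 85 counts and 1.68 FPKM, stood above Hist1h2bn with 58 counts and 1.25 FPKM.

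Of the 71 genes, 70 had at least 1 count in some library, 63 had at least 10 counts over the 6 libraries and 53 had a count in every library. Hist1h2aa was at 0 of 127827077 counts, which allows up to 0.0235 CPM (3 counts, counting error only). It is a testis histone gene, as are Hist1h2ba and Hist1h1t, which had 1 and 2 counts. These 3 were picked out after their values were seen. A mean of at least 0.1 FPKM was reached by 63 genes and at least 1 FPKM by 34.

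Detection differed between classes. All 13 H4 genes and 11 of 12 H3 genes had a count in every library, against 5 of 6 of H1, 14 of 20 of H2B and 10 of 20 of H2A. The median gene stood at 3.24 FPKM in H1 and 2.93 in H4, and at 0.707, 0.643 and 0.488 in H3, H2B and H2A. The range within a class was wide, from 0.0217 to 50.2 FPKM in H1 and from 0.187 to 2.65 in H3. H3 was thus the class with broad detection and no abundant member. Hist1h2aj, Hist1h2al and Hist3h2bb-ps are pseudogenes in RefSeq and had 4, 1 and 21 counts.

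**Figure D1:**
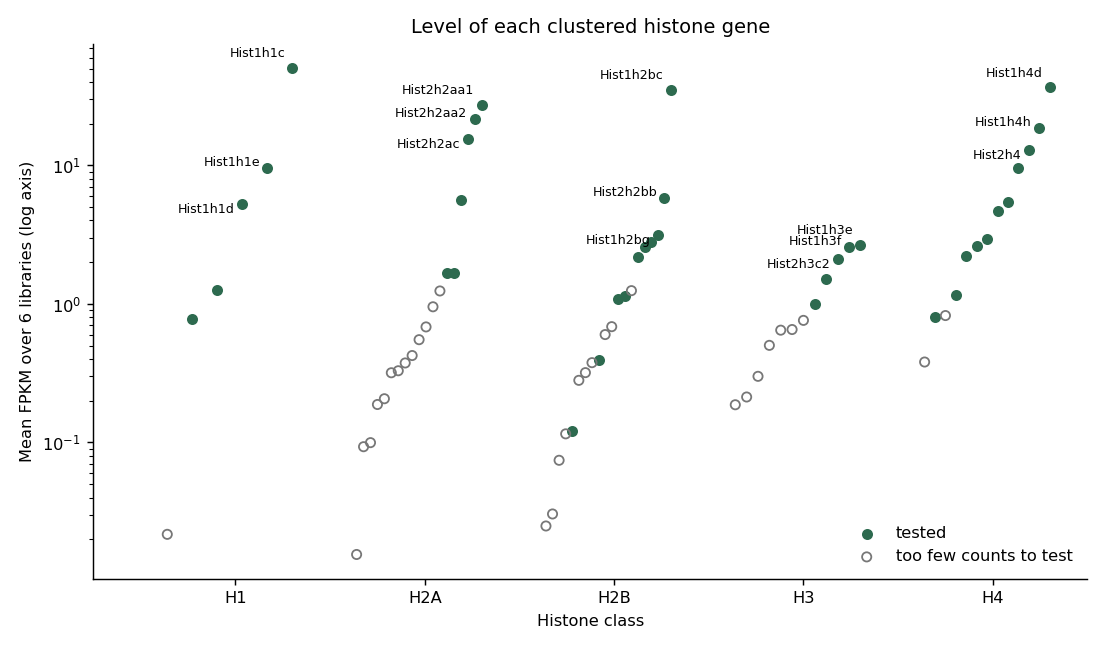
Mean FPKM over 6 libraries (log axis) of each histone gene with at least 1 count, by class, ordered by level, with filled points for the 37 genes tested and open points for those with too few counts. The highest member of H3 stood at 2.65 FPKM, while those of the other classes stood between 27.4 and 50.2.

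A few genes held most of the counts. Hist1h1c, a linker histone gene of most somatic tissues, took 30.2% of all histone counts, and the 10 genes with the most counts took 78.1%. After it came the H2B gene Hist1h2bc with 9.90%, the H4 gene Hist2h4 with 8.04% and the H2A gene Hist2h2aa1 with 6.17%. Within their classes Hist1h1c made up 86.7% of the H1 counts and Hist1h2bc 51.3% of the H2B counts, while the leading H3 gene, Hist1h3e, made up 23.2% of its class.

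There were 12 members with gene models of at least 1000 nt, where the median model was 478.5 nt, a division drawn after the data were seen. They included Hist1h1c (1560 nt), Hist2h4 (1630 nt), Hist3h2a (2146 nt), Hist2h2be (2620 nt) and Hist1h2be (6940 nt). They took 44.2% to 60.2% of the histone counts of a library. Their counts enter FPKM divided by a greater length, so Hist1h2be with 955 counts had a mean of 1.08 FPKM and Hist1h4h with 1123 counts had 18.8 FPKM. Whether reads outside the stem-loop transcript make up these counts was not tested.

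Summed over its genes as FPKM, H4 had the highest level and H3 the lowest in every library. Summed as CPM, which takes no account of gene length, H1 stood above H4 in every library and H3 was again the lowest. H4 summed to 102 ± 15.1 FPKM under TAC and 96.2 ± 8.53 under Sham (SD, n = 3 each), and H3 to 14.2 ± 2.69 and 12.0 ± 1.62. The ratio of H4 to H3 in summed FPKM was 7.02, 5.38 and 9.86 under TAC 1 to 3 and 8.25, 8.32 and 7.62 under Sham 1 to 3. It exceeded 5 in all of them, and the groups overlapped. The ratio of H2A to H2B was 1.44, 1.29 and 0.9996 under TAC and 1.60, 1.38 and 1.45 under Sham, lowest in TAC 3, where the H2A gene Hist2h2aa1 had 3 counts. H3 messages also come from replication-independent genes outside the clusters, of which H3f3c had a mean of 15.2 FPKM, H3f3b 13.9 FPKM and H3f3a 8.18 FPKM. Near-identical copies elsewhere in the genome make these levels per gene uncertain.

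Summed as FPKM, no class separated the groups. H1 summed to 62.7 ± 17.6 FPKM under TAC and 71.3 ± 7.61 under Sham, H2A to 71.6 ± 11.4 and 86.7 ± 11.6, and H2B to 57.8 ± 5.04 and 58.6 ± 5.53. The libraries of the groups overlapped in all 5 classes, although the means of H2A lay further apart than the SD of either group. Summed as CPM scaled by edgeR's TMM factors, H2B was 48.0, 55.5 and 62.2 under TAC and 46.1, 45.1 and 47.4 under Sham, and H3 was 9.48, 12.4 and 9.82 against 8.998, 7.53 and 9.45. In these sums the groups of H2B and H3 did not overlap, both narrowly, and the other 3 classes did. In H2B, TAC 1 at 48.0 lay just above Sham 3 at 47.4. The separations also rested on the TMM factors, 0.963 in TAC 1 and 1.06 in Sham 3. Over library totals alone, H2B had 992 of 21489237 counts in TAC 1 and 872 of 17399510 in Sham 3. The H2B value was then higher in Sham 3, as was that of H3 with 196 and 174 counts, and the groups overlapped. Leaving out 1 member, looked at after the data were seen, ended each separation. In H3, where TAC 1 at 9.48 lay just above Sham 3 at 9.45, leaving out other members, such as Hist1h3f, did so too. Without Hist2h2be, H2B was 39.6, 45.3 and 50.9 CPM under TAC and 40.2, 41.3 and 42.8 under Sham, and without Hist2h3c1, H3 was 9.43, 12.3 and 8.29 and 8.66, 7.49 and 9.40, both with overlap. No test was made of a sum over members.

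**Figure D2:**
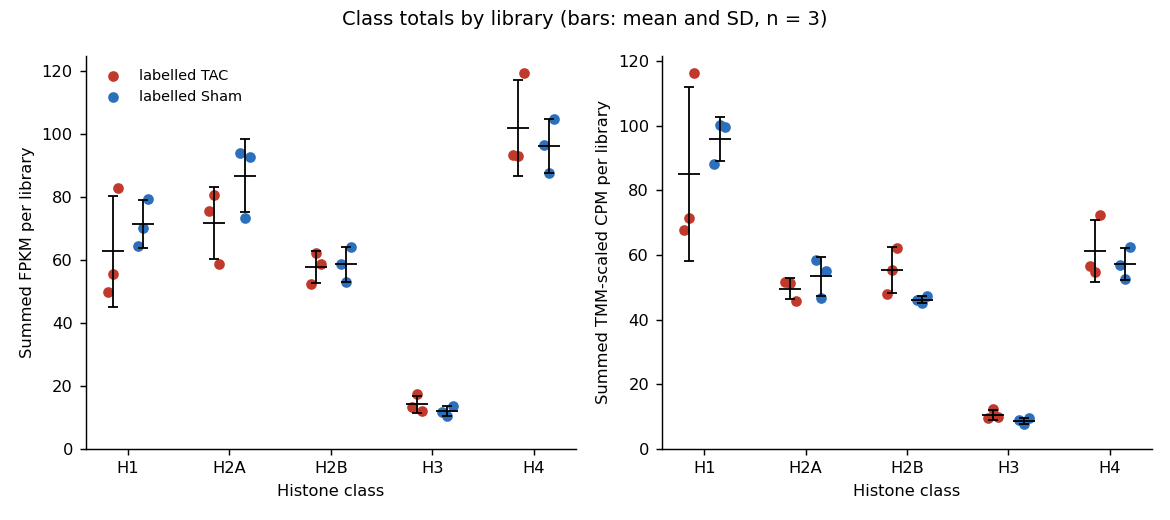
Summed level of each histone class per library, as FPKM (left) and as TMM-scaled CPM (right), with points for single libraries, bars for mean and SD of 3 libraries, and red for the label TAC and blue for Sham. H3 lies lowest in every library on both scales, and in CPM the points labelled TAC of H2B lie above all those labelled Sham.

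Within the histone counts of a library, shares of classes do not depend on how libraries are scaled. H2B took 20.6%, 22.6% and 20.3% under TAC and 17.8%, 17.9% and 17.3% under Sham. H1 took 32.0% ± 5.11 and 36.7% ± 2.90, H2A 19.3% ± 3.82 and 20.4% ± 2.09, H3 4.11% ± 0.920 and 3.31% ± 0.276, and H4 23.4% ± 0.990 and 21.9% ± 0.982 (SD, n = 3). The H2B shares did not overlap and the other classes' shares did. With Hist2h2be left out of the counts, the H2B shares were 17.6%, 19.3% and 17.3% under TAC and 15.9%, 16.7% and 15.9% under Sham, still without overlap. Shares also move with the other genes in the total, of which Hist1h1c was the largest. With Hist1h1c left out, H2B had 992 of 3663 counts in TAC 1 and 1275 of 4537 in Sham 2. The share was then higher in Sham 2 than in TAC 1, and the groups overlapped. In TAC 3 the share of H2A was 14.96% (exact binomial 95% interval 14.1% to 15.9%, counting error only), below the other 5 libraries, and H1 at 37.9% (36.7% to 39.2%) was above the other libraries labelled TAC. The H2A gene Hist2h2aa1 had 3 counts in TAC 3. The other H2A genes took 15.5%, 14.8% and 14.9% of histone counts in TAC 1 to 3 and 11.5% to 12.8% under Sham, so TAC 3 was not low.

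Of the 71 genes, 37 had enough counts for the edgeR test over 15198 genes, and 34 did not, with at most 62 counts over the 6 libraries. The test covered 5 genes of H1, 6 of H2A, 10 of H2B, 5 of H3 and 11 of H4. None of the 37 passed an adjusted p of 0.05, where 1.43% of all genes tested passed. At an unadjusted p under 0.05 there were 2 of 37 (5.41%), against 20.9% of all genes. DESeq2 called 1 of 37, Hist2h2be, at an adjusted p under 0.05, against 7.79% of genes. In RNA from whole tissue, fewer cells of a type cannot be told apart from less RNA per cell.

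The fitted log2 difference, labelled TAC minus labelled Sham, was positive for 24 of the 37 and negative for 13, with a median of 0.09 against 0.0075 for all genes tested. Leaving out TAC 1 moved that median to 0.22, and leaving out Sham 3 moved it to 0.27. The typical size of a difference was like that of other genes, with a median absolute log2 difference of 0.23 for both the histone genes and all genes, and 21 of the 37 lay within 0.25 of 0. Positive values numbered 4 of 5 in H1, 3 of 6 in H2A, 6 of 10 in H2B, 3 of 5 in H3 and 8 of 11 in H4. In TMM-scaled CPM the groups did not overlap, with the label TAC higher, in 5 members (13.5%, against 13.4% of all genes). With Sham higher, they did not overlap in 1 (2.70%, against 13.6%). Of the 5, Hist3h2a, Hist1h2bq and Hist1h4m overlapped in FPKM, which is not scaled by TMM. TAC 3 was the highest library for 14 of the 37 genes and TAC 2 for 11, while Sham 2 was the lowest for 13.

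**Figure D3:**
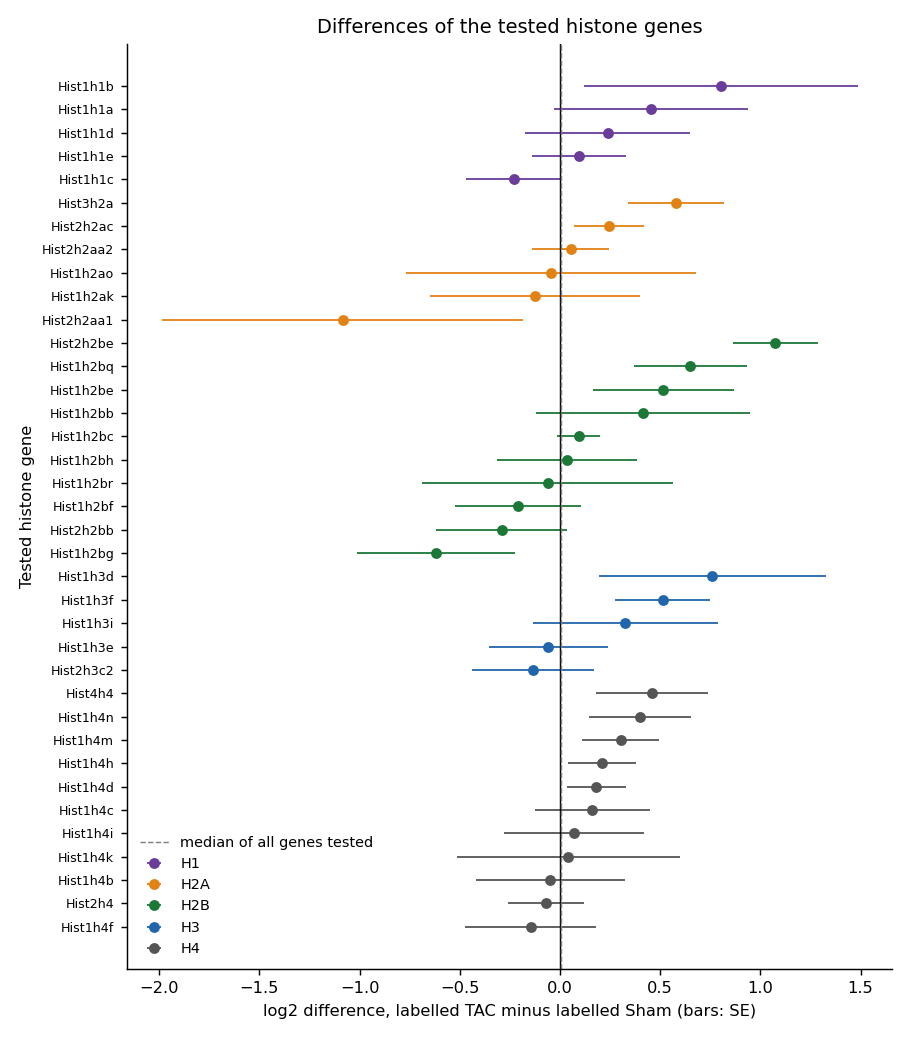
Fitted log2 difference, labelled TAC minus labelled Sham, of the 37 tested histone genes with its SE, by class, with the median of all genes tested as a dashed line. Hist2h2be at 1.07 and Hist2h2aa1 at -1.09 lie at the ends, the latter with an SE of 0.90.

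Hist2h2be, an H2B gene on chromosome 3 (96221119 to 96223738 in the deposited coordinates, GRCm38), had the smallest p among the members. It stood at 8.42, 10.2 and 11.2 CPM under TAC and at 5.84, 3.75 and 4.62 under Sham. All 3 libraries labelled TAC were above all 3 labelled Sham. The log2 difference was 1.07 ± 0.21 (SE), or 2.11-fold, with an adjusted p of 0.0563 in edgeR, just outside the threshold. It was inside at an adjusted p of 0.0337 with no filter on low counts, 0.00079 in DESeq2 and 0.0432 without Sham 1, and over all alternatives its adjusted p ran from 0.00079 to 0.162. Its neighbour Hist2h2ac, an H2A gene, stood at 8.998, 9.02 and 8.29 CPM and at 6.41, 6.79 and 9.07, with overlapping groups and a log2 difference of 0.24 ± 0.18 (adjusted p = 0.469).

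The remaining H2B genes showed no common direction. Hist1h2bc, the most abundant, stood at 24.7, 26.9 and 28.4 CPM and at 25.3, 24.8 and 25.0, all between 24.7 and 28.4, and had a log2 difference of 0.09 ± 0.11. Its neighbour Hist1h2ac, whose window reaches into the Hist1h2bc model, stood at 0.682 FPKM where Hist1h2bc stood at 35.1. Hist1h2be stood at 6.24, 6.21 and 14.0 CPM and at 4.83, 7.71 and 5.92, so that TAC 3 alone stood far above the rest, and its log2 difference of 0.52 ± 0.35 was 0.012 without TAC 3. Hist1h2bg lay at 0.774, 1.88 and 0.865 CPM and at 2.01, 1.41 and 2.01, a log2 difference of -0.62 ± 0.39 that was -1.13 without TAC 2 and -0.39 without TAC 1. Hist2h2bb (the tested row of the 2, which overlap in the genome) had -0.29 ± 0.33, and between -0.54 without TAC 2 and -0.034 without TAC 3. None of these passed the test.

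Among H2A genes Hist3h2a, the H2A gene of the small Hist3 cluster, stood at 12.5, 10.5 and 20.1 CPM under TAC and at 9.86, 9.05 and 10.05 under Sham. The groups did not overlap in CPM, and TAC 3 lay far above the other libraries. In FPKM the groups overlapped, with TAC 2 at 4.80 and Sham 3 at 4.95. The log2 difference was 0.58 ± 0.24 (unadjusted p = 0.0430, adjusted p = 0.223), and 0.26 without TAC 3. Hist2h2aa2 had a log2 difference of 0.05 ± 0.19.

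**Figure D4:**
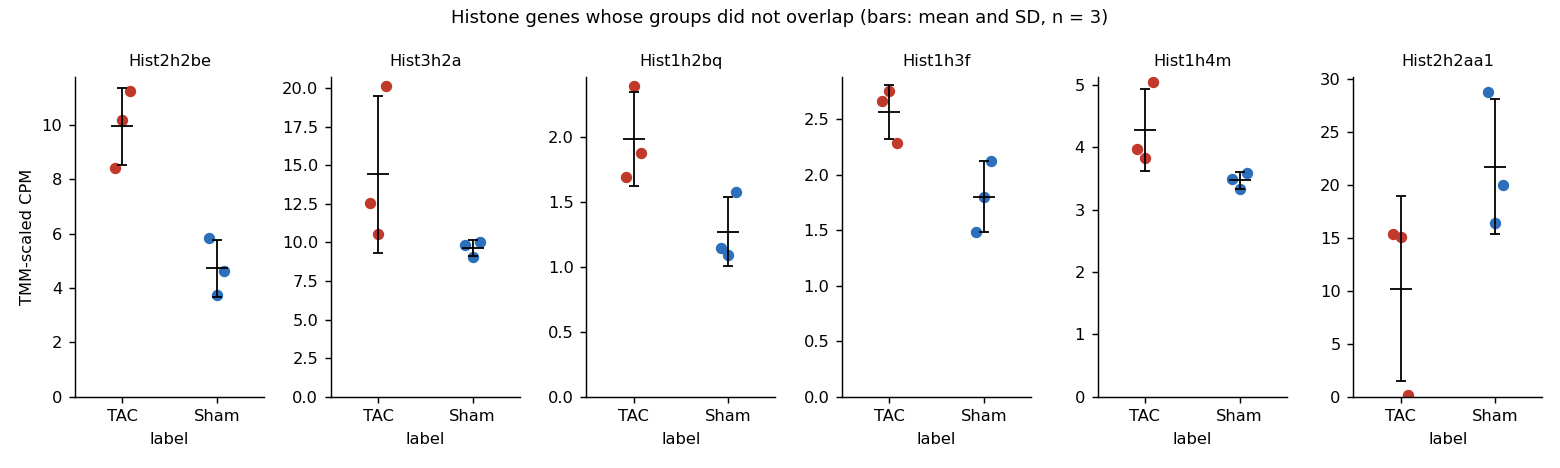
TMM-scaled CPM per library of the 6 tested histone genes whose 2 groups did not overlap, with mean and SD of 3 libraries. In Hist2h2aa1 the library labelled TAC 3 lies at 0.153 CPM, near 0, and in the other genes each library labelled TAC lies above each labelled Sham.

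Hist2h2aa1 and Hist2h2aa2 lie on chromosome 3 at 96245497 to 96246082 and 96239749 to 96240276, each beside an H3 gene, Hist2h3c1 and Hist2h3c2. Their promoter windows share 219 letters in a row, and those of the H3 genes 231, where the median of 399 pairs of windows within a class is 9. Hist2h2aa1 had 318, 296 and 3 counts under TAC 1 to 3 and 600, 464 and 368 under Sham 1 to 3. TAC 3 was near 0 and the other 5 libraries had at least 296. Hist2h2aa2 had 223, 185 and 292 counts and 215, 321 and 224, with no library apart. Hist2h3c1 had 1, 1 and 30 counts and 7, 1 and 1, so TAC 3 was its highest library, and Hist2h3c2 had 28 to 51.

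The deposited lncRNA table holds a transcript of 2956 nt, ENSMUST00000090779, that overlaps both Hist2h2aa1 and Hist2h3c1 at 96245554 to 96248509. It had 896, 822 and 1592 counts under TAC 1 to 3 and 13, 1381 and 955 under Sham. It was highest in TAC 3, where Hist2h2aa1 was lowest, and lowest in Sham 1, where Hist2h2aa1 was highest. Added together, the counts of the transcript and of Hist2h2aa1 were 1214, 1118 and 1595 under TAC and 613, 1845 and 1323 under Sham, still lowest in Sham 1. Whether reads were assigned to one feature or the other by library was not tested. In all 11 lncRNA transcripts overlapped 10 members, and 2 of them had at least 100 counts in some library.

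**Figure D5:**
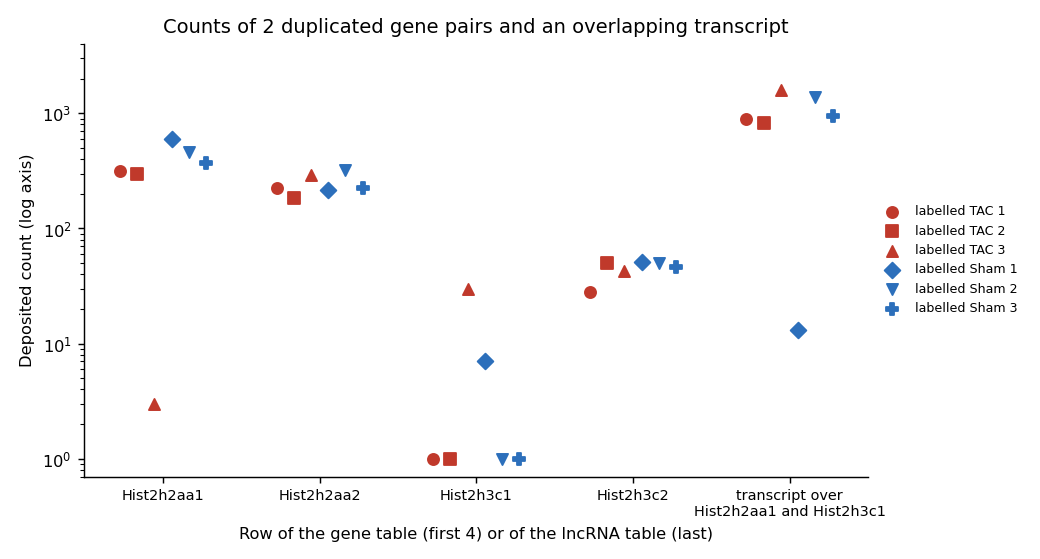
Deposited counts per library (log axis) of Hist2h2aa1, Hist2h2aa2, Hist2h3c1, Hist2h3c2 and the lncRNA transcript that overlaps the first and the third, red for the label TAC and blue for Sham. TAC 3 lies at 3 counts in Hist2h2aa1 and Sham 1 at 13 in the transcript, while Hist2h2aa2 lies between 185 and 321 in all libraries.

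Hist2h2aa1 accordingly had a log2 difference of -1.09 with an SE of 0.90 (adjusted p = 0.535), and -0.51 without TAC 3 (adjusted p = 0.295). H2A without this gene summed to 39.4 ± 5.47 CPM under TAC and 31.7 ± 2.94 under Sham, the reverse order of the sum with it. The libraries stood at 36.1, 36.3 and 45.7 CPM under TAC and 29.8, 30.1 and 35.0 under Sham, narrowly without overlap. Over library totals without TMM they overlapped, with 747 of 21489237 counts in TAC 1 and 645 of 17399510 in Sham 3. Hist3h2a stood at 12.5 CPM in TAC 1 and 10.05 in Sham 3, and leaving it out too ended the separation. In summed FPKM without Hist2h2aa1 the libraries stood at 50.2, 55.3 and 58.5 and at 44.4, 45.4 and 56.6, with overlap. These values are uncertain, since a read from either copy may be counted on the other. Each of 5 pairs whose promoter windows share at least 200 letters in a row was then summed, an alternative chosen after the data were seen. Hist2h2aa1 with Hist2h2aa2 had 541, 481 and 295 counts and 815, 785 and 592. All libraries labelled Sham were higher, as they were for Hist2h2aa1 alone, with a log2 difference of -0.59 ± 0.23 (adjusted p = 0.196). This sum still holds the 3 counts of Hist2h2aa1 in TAC 3.

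The other 4 summed pairs had positive values, from 0.12 to 0.51. Hist1h2bq and Hist1h2br, whose windows are the same over all 300 letters, are counted on separate rows with 203 and 56 counts. Hist1h2bq alone stood at 1.69, 2.39 and 1.88 CPM and at 1.15, 1.10 and 1.58, without overlap. In FPKM its groups overlapped, with TAC 1 at 0.394 and Sham 3 at 0.403. Its log2 difference was 0.65 ± 0.28 (adjusted p = 0.241), that of Hist1h2br -0.06 ± 0.63, and that of the sum 0.51 ± 0.26. Hist1h4m and Hist1h4n, whose windows share 285 letters, had 0.30 ± 0.19 and 0.40 ± 0.25, and together 0.34 ± 0.18. In edgeR no summed pair passed, nor did any of the 34 histone rows tested after summing. Of the 5 pairs 1, Hist2h2aa1 with Hist2h2aa2, had an unadjusted p under 0.05 (0.0317), where 20.9% of all genes did in the main test.

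Among the linker histones Hist1h1c stood at 56.0, 56.0 and 104 CPM under TAC and at 77.9, 91.5 and 83.5 under Sham. TAC 1 and TAC 2 lay below every library labelled Sham and TAC 3 above every one. The log2 difference was -0.23 ± 0.24 (adjusted p = 0.628), and without TAC 3 it was -0.59 (adjusted p = 0.0916), while without TAC 1 it was -0.080 and without TAC 2 -0.081. Hist1h1e at 5.56 to 9.10 CPM and Hist1h1d at 2.23 to 5.92 CPM over all libraries, both also somatic linker histone genes, had log2 differences of 0.09 ± 0.23 and 0.24 ± 0.41.

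H3 genes were few in counts. Hist1h3f stood at 2.66, 2.75 and 2.29 CPM and at 1.48, 1.80 and 2.12, without overlap, with a log2 difference of 0.51 ± 0.24 (adjusted p = 0.269). Hist1h3e, whose window holds 4 CCAAT boxes, and Hist2h3c2 had -0.06 ± 0.30 and -0.13 ± 0.30.

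Hist1h4d, the H4 gene with the highest FPKM and one of 3 H4 windows with a CCAAT box, stood at 13.8, 14.0 and 18.0 CPM and at 14.3, 12.8 and 13.4. Hist1h4h stood at 8.95, 8.25 and 11.3 CPM and at 7.80, 7.95 and 8.96. In both TAC 3 was the highest library and the groups overlapped, with log2 differences of 0.18 ± 0.15 and 0.21 ± 0.17, which were 0.048 and 0.064 without TAC 3. Hist2h4 at 17.0 to 26.1 CPM had -0.07 ± 0.19, and Hist4h4, the lone gene on chromosome 6, 0.46 ± 0.28. Hist1h4m stood at 3.97, 3.82 and 5.04 CPM and at 3.49, 3.32 and 3.59, without overlap (adjusted p = 0.409), and its log2 difference fell to 0.17 without TAC 3. In FPKM its groups overlapped, with TAC 2 at 9.29 and Sham 3 at 9.44.

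Genes around the histone messages were described from lists chosen with earlier results of these data known. Of 17 tested genes for histone message 3′ ends and transcription, 8 were positive and 9 negative with a median log2 difference of -0.01, and none passed in edgeR or DESeq2 or had an unadjusted p under 0.05. Slbp, the stem-loop binding protein, stood at 7.16, 10.5 and 7.99 CPM and at 6.51, 5.48 and 8.69, a log2 difference of 0.32 ± 0.23 (adjusted p = 0.468). Those with the smallest p were Ncbp2, of the nuclear cap-binding complex, at 0.26, Srrt at 0.18 and Mblac1, a nuclease of histone message ends, at -0.61.

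Of 28 tested cell cycle and DNA replication genes, 17 were positive and 11 negative with a median of 0.12, and none passed by either tool or had an unadjusted p under 0.05. Mcm6, a subunit of the replicative helicase, had -0.43 ± 0.20 (adjusted p = 0.282) and Tk1, thymidine kinase, 0.79 ± 0.45. The proliferation marker Mki67 was at 0.581 FPKM and Top2a at 0.253 FPKM as means over 6 libraries, levels well below those of the leading histone genes. These 2 are not among the smallest p of the list and were picked as markers after their values were seen. Other genes of the list stood higher, such as Rrm1 at 4.68 FPKM and Cdk2 at 4.32, above the leading H3 gene at 2.65. FPKM divides by gene length, and Mki67 had a mean of 6.64 CPM under TAC and 5.10 under Sham.

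Of 22 tested histone chaperones none passed by edgeR or DESeq2, and 1 had an unadjusted p under 0.05, against 20.9% of all genes. It was Anp32e, which removes H2A.Z from nucleosomes, at -0.38 ± 0.12 (adjusted p = 0.151). Nasp, a chaperone of H3 and H4, had 0.28 ± 0.12 (adjusted p = 0.241). Of 11 tested replication-independent histone genes none passed by either tool and 2 had an unadjusted p under 0.05 (18.2%, against 20.9% of all genes). These were Cenpa, the centromeric H3, at 0.67 ± 0.25 (adjusted p = 0.182) and H3f3a at 0.26 ± 0.11 (adjusted p = 0.218). H1f0, the linker histone of resting cells, stood at 48.7, 66.4 and 67.9 CPM and at 52.8, 38.2 and 47.9, overlapping, with a log2 difference of 0.40 ± 0.17 (adjusted p = 0.241).

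Of 14 listed RNAs without a poly(A) tail other than histone messages, 7 were found by name and 4 were tested. Rny1, Rny3 and Terc had too few counts to test, with means of 0.122, 0.328 and 0.196 FPKM. Malat1, a nuclear RNA whose end is a triple helix, had a mean of 2057 FPKM, Rpph1, the RNA of RNase P, 1342 FPKM, and Rmrp, the RNA of RNase MRP, 346 FPKM. None of the 4 tested passed by either tool or had an unadjusted p under 0.05, and Malat1 had the smallest p, with a log2 difference of 0.30 ± 0.15 (adjusted p = 0.296). Fibroblast markers moved with the labels, and the part that fibroblast content had in any histone value was not tested.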

How the data were processed

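Libraries were made with a VAHTS total RNA kit from miRNeasy-extracted, DNase-treated RNA, per the labels' protocols. StringTie 1.3.0 and HISAT2 2.0.4 are named in the submitters' processing notes, with GRCm38 (mm10) as the build. Not given in the sources used here are the counting program, its strand setting, its handling of reads with several matches and the annotation. Each gene has whole-number counts, 1 per library, per the file headers. The deposited FPKM values are those counts divided by a gene model length and by the library's total.

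Each library was assigned by the column name in its label. The counts of all genes were tested with edgeR 4.0.16 in R 4.3.3 (quasi-likelihood, two-sided, TMM scaling, filterByExpr with a minimum count of 10, Benjamini-Hochberg over the genes tested, threshold 0.05). The SE is the size of a log2 difference over the root of its F statistic. The test was tried on simulated data first. Within a group libraries differed far beyond counting noise (chi-square per gene of at least 16.6). Since the labels do not name separate mice, p-values speak only of the spread among these 6 libraries, which may be technical.

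Symbols were matched to RefSeq (GRCm38.p6) through synonyms, chromosome and position, for 70 of 71 rows; coordinates of genes are those of the deposited table. Named are the 3 members of each class with the highest mean FPKM, the 10 tested members with the smallest p, and of each related list up to 4 genes with the smallest p, besides Nppa and Acta1, which check the labels. Other genes are named as a copy, neighbour or pair partner of a named member, or were chosen after their values were seen, as H3f3b and H3f3c were. The members and lists were chosen with earlier results of these data known. Alternatives were DESeq2 1.42.0, median-of-ratios scaling, totals without TMM, no filter, a mean FPKM of at least 1, limma 3.58.1 on log2(FPKM + 0.1) and log2(FPKM + 1), a replicate block, each library left out and, chosen after seeing the data, near-identical copies summed and class sums of H2B without Hist2h2be and of H3 without Hist2h3c1.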

Additional observations from a re-analysis of the deposited data

How the results depend on the processing

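No histone gene passed under median-of-ratios scaling, totals without TMM, a mean FPKM of at least 1, both limma fits or summed copies, and 1 did, Hist2h2be, with no filter and in DESeq2. With each library left out the number ran from 0 to 1. Replicate numbers are not stated to pair the libraries. The correlations of same-numbered deviations were -0.136, -0.118 and -0.096, which with so few libraries cannot exclude pairing. With the replicate block 0 histone genes passed, and Hist2h2be had a log2 difference of 1.08 (adjusted p = 0.138). The median over the tested genes ran from 0.061 to 0.27 with 1 library left out.

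Of 22 named genes 16 kept their sign in all alternatives run. Hist2h2aa2 had -0.010 with totals without TMM, and -0.034 and -0.032 in the limma fits at pseudocounts of 0.1 and 1. With 1 library left out it ran from -0.16 to 0.19, Hist1h1d from -0.016 to 0.80, Hist2h3c2 from -0.33 to 0.089, Hist1h1e from -0.090 to 0.27, Hist2h4 from -0.27 to 0.053 and Hist1h3e from -0.28 to 0.14. The cause was not tested.

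The log2 ratio of class sums moved to 0.12 in H1 and 0.16 in H2A without the most abundant member, and in H2B to 0.26 in summed CPM and 0.13 in summed CPM without Hist2h2be. As shares of summed FPKM the mean class shares were 21.1% for H1, 25.1% for H2A, 18.4% for H2B and 31.3% for H4. Without Hist1h1c the shares of counts were 6.74% for H1, 28.2% for H2A, 27.6% for H2B, 5.23% for H3 and 32.2% for H4. Depth limits the 34 genes not tested, at most 62 counts each, and near-identical copies limit the 5 pairs. Those pairs were chosen by letters of promoter windows. Transcript sequences were not compared, so likeness among the other members was not tested.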
